A study of Rattus norvegicus with 17 samples.

Results

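The 10 genes described here answer to unfolded protein and were followed in single rat sensory neurons: 3 transcription factors of the stress response of the endoplasmic reticulum (ER), Xbp1, Atf4 and Ddit3, 3 of their targets, Hspa5, Trib3 and Herpud1, and 4 cytosolic chaperones, Hspb1, Hspb8, Cryab and Hspa8. They were chosen by name and make up 10 of 32883 gene rows. The neurons came from the bilateral L4 and L5 dorsal root ganglia (DRG) of adult naive male Sprague-Dawley rats of 200 g, were picked singly with a mouth pipette, and were amplified with a modified Smart-seq2 chemistry whose oligo(dT) primer holds a cell barcode and a unique molecular identifier (UMI), so that 3' ends were counted. The series concerns the different capacity of sensory neuron subtypes to grow axons. All 17 labelled batches form 1 group with no treatment arm. The protocols describe both fluorescently labelled neurons picked 15 min after plating and neurons with neurites picked after 72 h in culture (5 or more rats each), but no label used here ties a batch to either time or to particular rats. The file of batch 21 held the same counts as that of batch 20, so 16 batches with 1040 cells were used. Batches 28-1 and 28-3 have the same first number in their labels and were counted separately. No label used here says what they share.

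Cells with fewer than 2000 genes were left out, and the 967 kept held 4307 to 1514406 UMIs each and a median of 139374. Batches held 3812280 (batch 28-1) to 26065847 UMIs (batch 20), and no cell name occurred in more than 1 batch used. The 7 neuron markers (Tubb3, Uchl1, Snap25, Rbfox3, Prph, Stmn2 and Scn9a) summed to 6570 to 9295 CPM (the UMIs of a gene per 1e6 UMIs) per batch, and the 12 glial markers to 106 to 466.1 CPM. In all, 26 cells had over 2000 CPM of glial markers. P-values below come from fits with batch as a term. They measure how evenly a difference repeats across batches, and its spread between batches may be technical.

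Misfolded protein in the ER is sensed by membrane proteins whose signals splice Xbp1 mRNA, release ATF6 to the nucleus, and slow translation through PERK. Slowed translation favours synthesis of ATF4, the shared effector of the integrated stress response, which also answers to amino acid shortage and other stresses. ATF4 and its target CHOP (Ddit3) raise Trib3, a pseudokinase that restrains AKT, while XBP1 and ATF6 raise the ER chaperone BiP (Hspa5) and Herpud1, a factor of ER-associated degradation. Hspb1, Hspb8 and Cryab are small heat-shock proteins that hold unfolded protein in the cytosol, and Hspa8 is the constitutive cytosolic HSP70. In DRG neurons Hspb1 and the transcription factor Atf3 are known to rise after nerve injury. Xbp1 splicing and translation of Atf4 cannot be seen in 3' UMI counts.

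The promoters of 5 members held a full match to a short element named for one of these arms, and these 5 are shown so that the letters can be read beside the values below. Sequences come from RefSeq (assembly GRCr8, which is not the build of the counts), 250 bases upstream of each gene start, 5' to 3' on the gene's strand, in lower case with the matches in capitals. Entries were matched for 9 of the 10 members, all but Cryab. Each window of 300 bases, from 250 before to 50 after the start, was searched on both strands for the ER stress element ERSE (CCAAT, any 9 bases, CCACG), ERSE-II (ATTGG, any 1 base, CCACG), the C/EBP-ATF response element CARE (TGATGNAAN) and the heat-shock element HSE (GAA, any 2 bases, TTC, any 2 bases, GAA). Hspa5 (chr3:38452766-38453015, plus strand) and Xbp1 (chr14:84604373-84604622, plus strand) held ERSE, Herpud1 (chr19:10614708-10614957, minus strand) held ERSE-II and CARE, Trib3 (chr3:161275534-161275783, minus strand) held CARE, and Hspa8 (chr8:50080264-50080513, plus strand) held 2 matches to HSE. CARE lay on the opposite strand in both genes and so reads as its reverse complement.
Hspa5: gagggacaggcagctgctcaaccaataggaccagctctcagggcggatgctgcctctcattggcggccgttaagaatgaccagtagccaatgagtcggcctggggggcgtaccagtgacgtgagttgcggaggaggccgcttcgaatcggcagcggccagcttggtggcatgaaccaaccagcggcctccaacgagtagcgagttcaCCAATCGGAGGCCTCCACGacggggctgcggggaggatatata
Xbp1: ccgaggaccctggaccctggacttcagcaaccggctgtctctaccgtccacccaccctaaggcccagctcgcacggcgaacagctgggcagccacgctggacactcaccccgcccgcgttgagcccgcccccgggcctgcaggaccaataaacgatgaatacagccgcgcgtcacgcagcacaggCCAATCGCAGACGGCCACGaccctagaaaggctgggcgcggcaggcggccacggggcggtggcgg
Herpud1: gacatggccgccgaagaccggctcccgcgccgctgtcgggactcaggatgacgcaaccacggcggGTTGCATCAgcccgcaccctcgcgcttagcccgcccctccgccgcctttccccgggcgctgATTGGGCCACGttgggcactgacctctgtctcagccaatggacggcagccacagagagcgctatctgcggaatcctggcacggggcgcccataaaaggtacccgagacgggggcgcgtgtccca
Trib3: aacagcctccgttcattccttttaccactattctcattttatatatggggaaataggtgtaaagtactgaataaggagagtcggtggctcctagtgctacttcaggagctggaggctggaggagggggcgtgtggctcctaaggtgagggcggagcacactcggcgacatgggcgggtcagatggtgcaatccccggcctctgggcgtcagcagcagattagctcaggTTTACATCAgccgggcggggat
Hspa8: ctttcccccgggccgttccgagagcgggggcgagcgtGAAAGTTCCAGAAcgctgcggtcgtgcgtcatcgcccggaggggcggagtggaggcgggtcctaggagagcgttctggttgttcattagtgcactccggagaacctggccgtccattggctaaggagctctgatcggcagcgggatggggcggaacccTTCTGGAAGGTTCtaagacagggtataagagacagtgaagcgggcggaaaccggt
Of 33469 rat promoters, 0.0657% held ERSE, 0.0508% ERSE-II, 3.97% CARE and 0.798% HSE. The windows of Ddit3, Atf4, Hspb1 and Hspb8 held no full match to these elements, which says nothing of factors bound there. They did hold parts: CCACG in Ddit3 and Atf4 (in 31.6% of promoters), and GAANNTTC in Hspb1 and Hspb8 (in 8.59%). The match in Hspa5 began 43 bases before the start, that in Xbp1 65 bases and that in Trib3 22 bases before it.

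Across the 16 batches the members had coefficients of variation between 7.03% (Hspa8) and 33.1% (Cryab), and the highest batch was 1.32 times the lowest for Hspa8 and 3.18 times for Cryab. This includes whatever difference in plating time the batches hold. Levels are CPM of the UMIs summed over a batch's kept cells, given as the mean ± SD over 16 batches. Among the transcription factors, Ddit3 was at 317 ± 69.6 CPM and ran from 250 CPM in batch 29 through a median of 294 to 498 CPM in batch 24, followed by 437 CPM in batch 28-1. Atf4 was at 551 ± 80.0 CPM with a median of 534, and it ran from 473 CPM in batch 34 to 825 CPM in batch 28-1, with the next batch at 602 CPM. Batch 28-1 thus lay well above the others for Atf4. Xbp1 was low, at 28.2 ± 5.39 CPM with a range of 19.2 to 35.9, and its batch sums rest on 76 to 852 UMIs.

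Among the ER stress targets, Hspa5 lay between 337 (batch 32) and 492 CPM (batch 28-1), with a mean of 395 ± 39.8. Herpud1 lay between 137 (batch 34) and 235 CPM (batch 23), with a mean of 173 ± 29.7. Batch 28-1 was high for both, with 214 CPM of Herpud1. Trib3 was lowest in batch 24, at 73.6 CPM, and highest in batch 28-3, at 165 CPM (mean 114 ± 22.4). By summed UMIs batch 24 therefore held the highest Ddit3 level and the lowest level of Trib3, its target. By the median cell it did not lead in Ddit3: batch 24 had 320 CPM, batch 20 had 345, batch 23 had 339 and batch 28-1 had 337 CPM. Batch 24 also had the highest level of the immediate-early gene Fos, at 161 CPM of summed UMIs, ahead of batch 23 (86.4 CPM) and batch 28-1 (57.1 CPM), where the median batch had 8.09 CPM. The part of these differences in the members was not tested.

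Among the chaperones, Hspb1 was at 2782 ± 323 CPM (2204 in batch 24 to 3358 in batch 22), Hspb8 at 655 ± 70.9 CPM (581 in batch 31 to 841 in batch 28-1) and Hspa8 at 743 ± 52.2 CPM (647 in batch 29 to 851 in batch 28-1). Hspa8 has near-identical copies in mammalian genomes, so its counts are uncertain. Cryab was at 107 ± 35.6 CPM and varied most, from 54.3 CPM in batch 28-3 to 173 CPM in batch 20. Its cells were uneven too: the median cell had 31.6 CPM, and 81.0% of cells had a UMI of it.

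**Figure D1:**
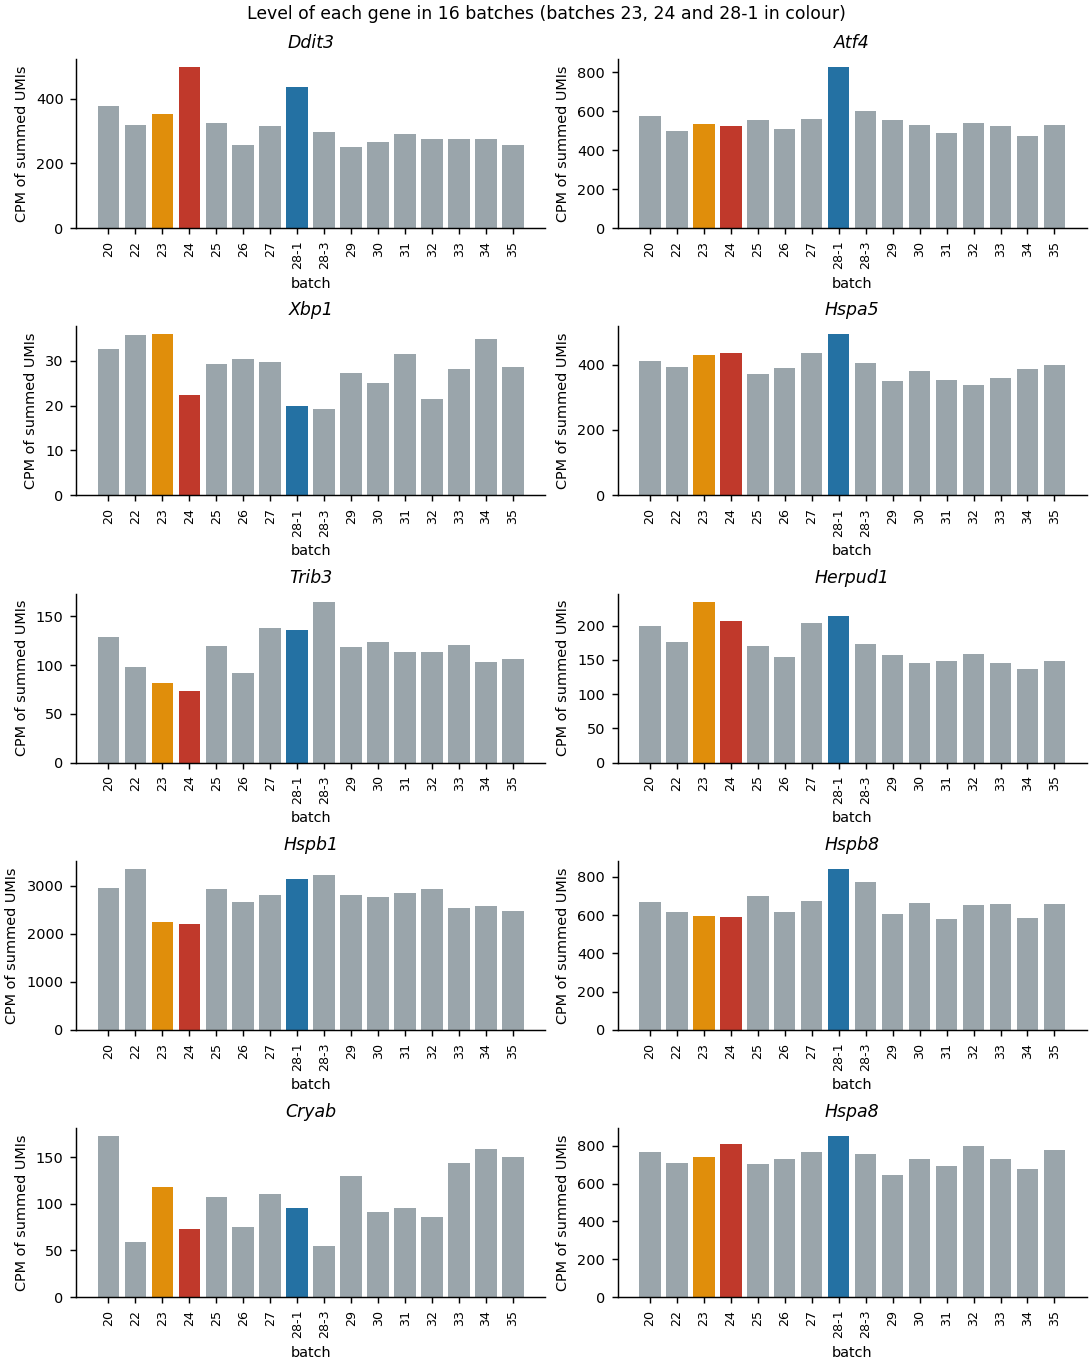
Level of each gene in each of 16 batches, in CPM of UMIs summed over the kept cells of the batch (bars start at 0; 1 value a batch, so no error bar). Batches 23, 24 and 28-1, the 3 with the highest Fos levels, are coloured: Ddit3 peaks in batch 24 (498 CPM) and Atf4 in batch 28-1 (825 CPM), while Cryab spreads from 54.3 to 173 CPM.

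Neurons with more Atf3, the injury-induced transcription factor, had more Atf4 and more of 3 of the 4 chaperones, while Trib3, Herpud1, Xbp1 and Cryab did not pass the test in either direction. Cells of each batch were ranked by Atf3 CPM, and the top of 3 equal parts (Atf3-high, 316 cells) was set against the bottom part (Atf3-low, 316 cells), with the UMIs of each part summed per batch. These levels are CPM scaled by TMM factors, and tests are edgeR quasi-likelihood tests with batch as a term and Benjamini-Hochberg adjustment over 10745 genes, with a threshold of 0.05. Atf3 itself, which chose the cells, was at 1317 CPM in Atf3-high and 404 CPM in Atf3-low cells. Of the 10 members 6 were called higher and 0 lower, where 12.9% of all tested genes were called higher and 15% lower (27.9% in all). The members' median log2 fold change was 0.42 and that of all tested genes -0.11.

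Atf4 ran from 560 through a median of 782 to 1116 CPM in Atf3-high sums, against 333 through 424 to 871 CPM in Atf3-low sums. The ranges overlap, but the Atf3-high sum was the higher in 16 of 16 batches. On the log2 scale this was a rise of 0.83 ± 0.07 (SE, edgeR adjusted p = 2.083e-09). Hspa5, the ER chaperone, ran from 334 through 486 to 730 CPM in Atf3-high sums, against 281 through 326 to 502 CPM in Atf3-low sums. It too was higher in 16 of 16 batches, by 0.56 ± 0.07 (adjusted p = 3.846e-07). Ddit3 was at 358 ± 122 CPM in Atf3-high and 294 ± 107 CPM in Atf3-low sums (SD, n = 16) and was higher in 12 of 16 batches, by 0.28 ± 0.09 (adjusted p = 0.0224). That call was lost with cells thinned to 30000 UMIs (0.10, adjusted p = 0.476), with no batch term (adjusted p = 0.167), with the sets drawn within each batch and gate (adjusted p = 0.0588) and with total UMIs as the scale (adjusted p = 0.979).

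Of the 4 chaperones 3 were called higher. Hspb1 ran from 2702 through 3858 to 6665 CPM in Atf3-high sums, against 1576 through 2239 to 3373 CPM in Atf3-low sums, a log2 fold change of 0.75 ± 0.10 (adjusted p = 9.767e-07). Hspa8 was at 1006 ± 115 CPM in Atf3-high and 617 ± 100.1 CPM in Atf3-low sums (SD, n = 16), higher by 0.71 ± 0.07 (adjusted p = 2.417e-08). Hspb8 was at 825 ± 154 CPM in Atf3-high and 558 ± 97.4 CPM in Atf3-low sums, higher by 0.56 ± 0.07 (adjusted p = 6.783e-07). With TMM factors the Atf3-high sum of all 3 was the higher in every one of the 16 batches, with the smallest ratio of each in batch 24. With thinned cells Hspb1, Hspa8 and Hspb8 kept log2 fold changes of 0.47, 0.35 and 0.36, and Atf4 and Hspa5 kept 0.50 and 0.37, each still called. Cryab, the remaining small heat-shock gene, was at 103 ± 64.5 CPM in Atf3-high and 129 ± 60.8 CPM in Atf3-low sums and higher in 8 of 16 batches (-0.44 ± 0.30, adjusted p = 0.2874). Cryab was called lower without the 26 glia-rich cells (-0.82, adjusted p = 0.0248), with no filter on low counts (adjusted p = 0.000365) and with total UMIs as the scale (-0.73, adjusted p = 0.0368).

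Trib3, a target of ATF4 and CHOP, and Herpud1, which XBP1 and ATF6 raise, showed no difference past the threshold. Trib3 was at 115 ± 36.5 CPM in Atf3-high and 108 ± 31.5 CPM in Atf3-low sums (0.10 ± 0.10, adjusted p = 0.4625). Herpud1 was at 175 ± 88.5 CPM in Atf3-high and 163 ± 29.3 CPM in Atf3-low sums (0.00 ± 0.11, adjusted p = 0.9801). The Herpud1 range in Atf3-high sums was wide, from 91.0 CPM in batch 32 to 411 CPM in batch 28-1. Xbp1 was at 25.4 ± 14.5 CPM in Atf3-high and 29.2 ± 5.56 CPM in Atf3-low sums and was lower in 13 of 16 batches (-0.31 ± 0.18, adjusted p = 0.2084). It was called lower without batch 32 (-0.43) and with total UMIs as the scale (-0.59).

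Depth moved with Atf3. Atf3-high cells had a median of 79932 UMIs and Atf3-low cells 208764, and Atf3-high cells were the deeper set in 4 of 16 batches. Sets drawn separately among the deeper and the shallower cells of each batch (medians of 129251 UMIs in Atf3-high and 140128 in Atf3-low cells) gave log2 fold changes of 0.68 for Atf4, 0.55 for Hspa5, 0.58 for Hspb1, 0.57 for Hspa8, 0.47 for Hspb8 and 0.28 for Ddit3, all called. With total UMIs in place of TMM factors the median over all genes was -0.39, against -0.11 with TMM, and the calls turned from 1385 higher and 1616 lower to 648 higher and 5545 lower. On that scale 5 members were higher and 2 lower: Atf4 was at 0.55, Hspa5 at 0.28, Hspb1 at 0.47, Hspa8 at 0.43 and Hspb8 at 0.28, Ddit3 was at 0.00 and Trib3 turned to -0.18 (adjusted p = 0.147). In CPM without TMM factors the Atf3-high sum was the higher in 16 of 16 batches for Atf4 and Hspa8. It was the higher in 15 for Hspb1 and Hspb8, 14 for Hspa5 and 8 for Ddit3. All 12 glial markers are in the counts. Their sum ran from 125 to 602 CPM in Atf3-high and from 157 to 642 CPM in Atf3-low sums, with Kcnj10 at 0 in both. The 7 neuron markers ran from 7437 to 13204 CPM in Atf3-high and from 5805 to 8499 CPM in Atf3-low sums. Gates were unequal between the sets as well, with 24.1% of Atf3-high and 14.6% of Atf3-low cells in the Clmp gate. The shares were 1.90% and 10.1% in the Ntsr1+Chrna3 gate, and 0.949% and 7.59% in the Gzmbl3+Lpar3 gate. The part of glial RNA in the members' differences was tested only by leaving out the glia-rich cells. With sets drawn within batch and gate Atf4 was at 0.46, Hspb1 at 0.50, Hspa8 at 0.48, Hspb8 at 0.42 and Hspa5 at 0.35, all called.

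**Figure D2:**
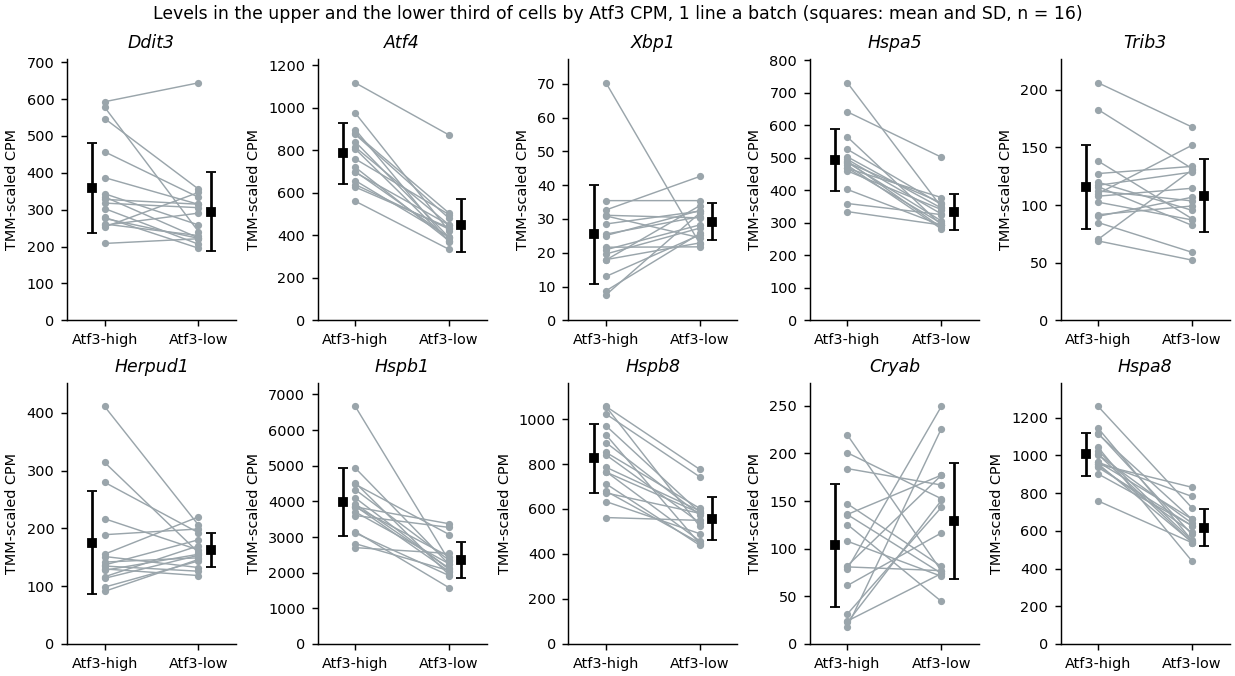
TMM-scaled CPM of each gene in Atf3-high cells (left) and Atf3-low cells (right), the top and bottom of 3 equal parts of a batch by Atf3 CPM; each grey line is 1 of 16 batches, and squares with bars are the mean and SD. Every line slopes down from left to right for Atf4, Hspa5, Hspb1, Hspb8 and Hspa8, whereas those of Trib3, Herpud1 and Cryab cross.

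Ranks of single cells gave a similar order. Across the cells of a batch, Spearman's rho with Atf3 CPM had a median over 16 batches of 0.32 for Atf4 (above 0 in 15 batches), 0.26 for Hspb1 (14), 0.17 for Hspa8 (14), 0.12 for Hspa5 (15) and 0.07 for Hspb8 (14). The medians were -0.03 for Trib3 (above 0 in 7 batches), -0.05 for Ddit3 (6) and for Xbp1 (4), -0.09 for Herpud1 (4) and -0.11 for Cryab (4). For scale, 7 injury genes had medians of 0.36 (Jun and Gap43), 0.27 (Gal), 0.14 (Sprr1a), 0.07 (Sox11), -0.02 (Ecel1) and -0.03 (Csf1). The cells of a batch are not independent replicates, and both CPM share a cell's total. These values are therefore descriptions with no p, and those near 0 are no finding. Hspb1 fell with depth across cells (median rho with UMIs -0.82), and so did Hspa8 (-0.30), Atf4 (-0.26) and Atf3 (-0.25), whereas Xbp1 (0.44), Herpud1 (0.43) and Trib3 (0.37) ran the other way.

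Trib3 had its highest values in 3 batches. In batches 23, 24 and 28-1 the rho of Trib3 with Atf3 was 0.29, 0.59 and 0.30, and the highest of the other 13 batches was 0.07. Herpud1 had 0.08, 0.46 and 0.28 there, with 1 other batch above 0 (0.13 in batch 33). For Ddit3 the value was 0.33 in batch 23, 0.27 in batch 24 and -0.03 in batch 28-1. Hspb1 had 0.36, 0.20 and -0.19 in those batches, and Hspb8 had its highest value of all in batch 23 (0.46). These are the same batches that led in Fos, were singled out after their values were seen, and hold 43, 32 and 45 kept cells.

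**Figure D3:**
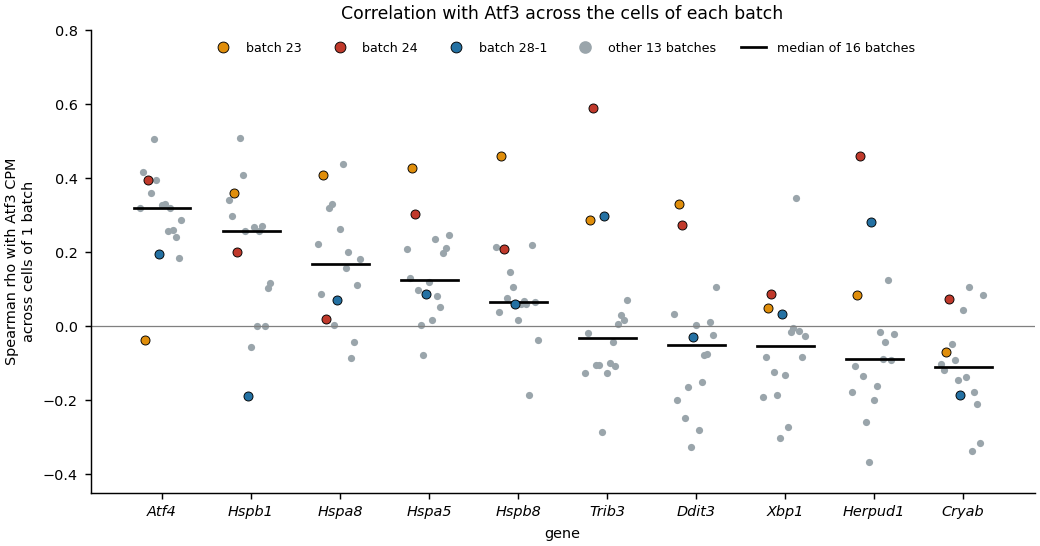
Spearman's rho between each gene and Atf3 across the cells of a batch (1 point a batch, 16 batches; black line, median). Atf4 (median 0.32) and Hspb1 (0.26) lie mostly above 0, and batches 23, 24 and 28-1, coloured, sit above the other 13 for Trib3 and above most of them for Herpud1.

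Of 29 tested genes for ER protein folding and degradation, 8 were higher and 7 lower (list median -0.01, all genes -0.11), a called share of 51.7% beside 27.9% of all genes. Those higher in Atf3-high cells included the lectin chaperones Canx (0.52, adjusted p = 1.189e-06) and Calr (0.37, adjusted p = 0.00402). Factors of ER-associated degradation went both ways. Os9 (0.42, adjusted p = 4.16e-06) and Ubxn4 (0.40, adjusted p = 0.0002034) were higher. Edem1 (-0.85, adjusted p = 0.01068), Derl1 (-0.44, adjusted p = 0.0006047) and Derl2 (-0.42, adjusted p = 0.01139) were lower. The folding gene Dnajc3 was lower as well (-0.39, adjusted p = 0.005369). Of 18 sensors and transcription factors, 0 were higher and 4 lower (median -0.27), a called share of 22.2% beside 27.9% of all genes, among them Eif2ak3, which encodes PERK, at 53.8 CPM in Atf3-high and 93.1 CPM in Atf3-low sums (-0.77, adjusted p = 3.043e-05). Of 18 targets of the integrated stress response, 5 were higher and 2 lower (median 0.16), a called share of 38.9%. Slc3a2, the heavy chain of amino acid transporters, was higher by 0.65 (adjusted p = 1.716e-07) and Ppp1r15a (GADD34), which reverses the block of translation, by 0.46 (adjusted p = 0.0003043). Of 35 cytosolic heat-shock genes, 6 were higher and 2 lower (median 0.02), a called share of 22.9% that is below that of all genes, led by Hsp90ab1 at 2534 CPM in Atf3-high and 1302 CPM in Atf3-low sums (0.97, adjusted p = 3.524e-08). With total UMIs as the scale the higher and lower counts were 2 and 18, 0 and 13, 2 and 6, and 2 and 16 for the lists in this order, beside 648 and 5545 of 10745 genes, and with sets drawn within batch and gate 3 and 0, 0 and 0, 2 and 0, and 2 and 0. In that split Dnajc3 and Nfe2l1, lower at first, were at 0.07 and 0.02.

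Subtypes of neuron were approached through gates, each a set of genes that all had to reach 20 CPM and 2 UMIs in a cell. Sst with Nppb is known from itch neurons, Trpm8 from cold-sensing neurons, Th from C-low-threshold mechanoreceptors and Pvalb from proprioceptors, and the gates are called here by their genes alone. Cells passing exactly 1 gate numbered 205 for Clmp, 94 for Sst+Nppb, 61 for Ntsr1+Chrna3, 47 for Gzmbl3+Lpar3, 23 for Th, 19 for Trpm8 and 1 for Pvalb+Vsnl1, while 363 passed none and 154 several. UMIs were summed per batch and gate where a batch held at least 3 such cells, which gave 51 sums: 15 for Clmp, 11 for Sst+Nppb, 10 for Ntsr1+Chrna3, 8 for Gzmbl3+Lpar3, 5 for Th and 2 for Trpm8. Pvalb+Vsnl1 gave no sum and is in no test of this fit. Of 13158 genes 28.9% differed between gates, and 8 of the 10 members did: Hspa5 (adjusted p = 0.0001854), Trib3 (0.0006432), Herpud1 (0.0007405), Atf4 (0.0009164), Ddit3 (0.003334), Hspa8 (0.01076), Hspb8 (0.0158) and Hspb1 (0.03745). Xbp1 (adjusted p = 0.1714) and Cryab (0.6532) did not pass. The 2 Trpm8 sums hold 6 cells in all and their spread is taken from the other gates, so the fit was repeated without them, which was chosen after seeing the data. Hspa8 (adjusted p = 0.241) and Hspb8 (0.149) then did not pass and the other 6 did. The call of Hspb1 was also lost without batch 26, 27, 29, 32 or 34, and those of Hspb8 and Hspa8 without batch 31. Glial markers summed to 52.6 to 243 CPM in Gzmbl3+Lpar3 sums, 111 to 434 CPM in Clmp sums and 81.4 to 333 CPM in Ntsr1+Chrna3 sums, and their part in the gates' differences was not tested beyond leaving out the glia-rich cells.

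Trib3 and Herpud1 were higher in the Gzmbl3+Lpar3 gate than the mean of the other gates, and Ddit3 and Herpud1 were lower in the Clmp gate than the mean of the others. Single gates overlapped: Trib3 averaged 154 CPM in Gzmbl3+Lpar3 and 152 CPM in Th sums, and 1 of the 2 Trpm8 sums held 469 CPM of Herpud1. Trib3 ran from 122 through a median of 156 to 177 CPM in Gzmbl3+Lpar3 sums, and it was above the mean of the other gates in 8 of 8 batches. Against the mean of the other 5 gates it was 0.79 ± 0.16 higher on the log2 scale (SE, adjusted p = 0.0005303), and 0.54 without the Trpm8 sums (adjusted p = 0.00479). Herpud1 ran from 162 through 237 to 310 CPM in Gzmbl3+Lpar3 sums, higher in 7 of 8 batches, by 0.51 ± 0.15 (adjusted p = 0.01223). Ddit3 was at 401 ± 101 CPM there (SD, n = 8) and 0.33 ± 0.16 above the others (adjusted p = 0.1562). Without the Trpm8 sums Ddit3 was called at 0.57 (adjusted p = 0.00132), and Hspb1 at 0.34 (adjusted p = 0.0205). These 2 called members of 10 stand beside 9.28% of all genes called higher in Gzmbl3+Lpar3 sums, 5.84% lower and 15.1% in all. Atf3 was lower in this gate, at 560 ± 72.6 CPM (-0.33, adjusted p = 0.03194). Depth moved with the gate, whose cells had a median of 381095 UMIs, and with all cells thinned to 30000 UMIs Trib3 (0.67), Herpud1 (0.80) and Ddit3 (0.59) were all called. The calls of Trib3 and Herpud1 were lost with gates at 10 or 50 CPM or at least 5 cells a sum, where log2 fold changes were 0.38 to 0.69 for Trib3 and 0.45 to 0.71 for Herpud1, and that of Herpud1 without batch 26, 31 or 32. With cells assigned to the gate of highest summed CPM, a rule chosen after seeing the data, Trib3 was at 0.22 (adjusted p = 0.333) and Herpud1 at 0.39 (adjusted p = 0.0435).

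In the Clmp gate Ddit3 ran from 96.7 through a median of 235 to 329 CPM, and it was below the mean of the other gates in 14 of 14 batches. Its log2 difference was -0.62 ± 0.14 (adjusted p = 0.001452). Herpud1 ran from 78.5 through 138 to 188 CPM and was lower in 13 of 14 batches, by -0.48 ± 0.13 (adjusted p = 0.00901). Of all genes 3.67% were called lower in Clmp sums, 6.51% higher and 10.2% in all. The Clmp gate had no sum in batch 24, but one of the sums it was set against did, the Trpm8 sum with 1440 CPM of Ddit3 and 469 CPM of Herpud1. Without batch 24 Ddit3 was at -0.33 and Herpud1 at -0.26, both uncalled. With all batches and without both Trpm8 sums Ddit3 was at -0.48 (adjusted p = 0.000363) and Herpud1 at -0.38 (adjusted p = 0.00429). Trib3 was then called lower too (-0.40, adjusted p = 0.00524) and Hspa5 higher (0.27, adjusted p = 0.00848). With the Trpm8 sums kept, neither was called in the Clmp gate: Trib3 was at -0.14 (adjusted p = 0.6286) and Hspa5 at 0.08 (adjusted p = 0.65). Against the plain mean of the other gates present in a batch, Trib3 was lower in 13 of 14 batches and Hspa5 higher in 12 of 14. Thinned to 30000 UMIs, Ddit3 was at -0.23 (adjusted p = 0.422) and Herpud1 at -0.15 (adjusted p = 0.757), and with at least 4000 genes a cell Ddit3 (-0.34, adjusted p = 0.0874) and Herpud1 (-0.27, adjusted p = 0.258) were uncalled as well.

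Atf4, Hspa5 and Hspb8 were lowest on average in the Ntsr1+Chrna3 gate, where Atf3 was low as well. Hspb1 (-0.29, adjusted p = 0.09143) and Hspa8 (-0.34, adjusted p = 0.06759) were also lowest there on average but were not called. Atf4 ran from 357 through 446 to 551 CPM in these 10 sums, by -0.47 ± 0.10 against the other gates (adjusted p = 0.003404), and it was lower in 8 of 10 batches. Hspa5 ran from 276 through 305 to 435 CPM (-0.42 ± 0.10, adjusted p = 0.01032) and Hspb8 from 423 through 561 to 838 CPM (-0.37 ± 0.10, adjusted p = 0.02302). Atf3 was lower in 10 of 10 batches, at 480 ± 69.3 CPM (-0.60 ± 0.10, adjusted p = 0.0003904). Of all genes 2.52% were called lower in this gate, 2.12% higher and 4.64% in all. Without the Trpm8 sums none of the 3 members was called: Atf4 was at -0.29 (adjusted p = 0.0984), Hspa5 at -0.25 (adjusted p = 0.178) and Hspb8 at -0.23 (adjusted p = 0.226). The 3 were likewise uncalled with thinned cells (Atf4 -0.42, Hspa5 -0.43, Hspb8 -0.30), gates at 10 or 50 CPM, at least 5 cells a sum and the rule of highest summed CPM, and Hspb8 also without batch 28-3, 29, 31 or 34. Cells of this gate had a median of 329685 UMIs. Across cells Atf4 and Hspb8 fell with depth (median rho -0.26 and -0.20), whereas Hspa5 rose with it (0.16). The part of depth in these differences was not tested beyond thinning.

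The Trpm8 gate had the opposite values on 2 sums of 6 cells. Atf4 was at 733 CPM in batch 24 and 944 CPM in batch 31, and Hspa5 at 711 and 529 CPM. Atf3 was at 1408 and 1082 CPM. The fit called Atf4 (0.90 ± 0.19, adjusted p = 0.002303), Hspa5 (0.94 ± 0.21, adjusted p = 0.002491), Hspa8 (0.87 ± 0.22, adjusted p = 0.009321) and Hspb8 (0.71 ± 0.20, adjusted p = 0.02078) higher and no member lower, beside 3.94% of all genes called higher, 3.41% lower and 7.36% in all. The 2 sums lay far apart for 3 other members. Ddit3 was at 1440 CPM in batch 24 and 198 CPM in batch 31, Herpud1 at 469 and 110 CPM, and Trib3 at 7.22 and 82.9 CPM. With cells thinned, or with gates at 10 or 50 CPM, none of the 4 was called, and leaving out batch 24 or 31 left 1 sum.

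In Sst+Nppb sums Hspa5 ran from 244 through 364 to 458 CPM and was called lower (-0.31 ± 0.09, adjusted p = 0.03575), beside 1.32% of all genes called lower, 4.53% called higher and 5.85% in all. The call was lost in 7 of 16 fits that leave out a batch and without the Trpm8 sums (-0.12, adjusted p = 0.487), and with cells assigned to the gate with the highest summed CPM Hspa5 turned to 0.01. In the 5 Th sums Trib3 was at 187, 231, 91.8, 99.97 and 149 CPM in batches 20, 25, 26, 33 and 34. Its mean was 152 CPM, and it did not pass (0.47 ± 0.21, adjusted p = 0.3355). None of the 10 members was called in the Th gate by edgeR or DESeq2, where 0.418% of genes were called and an unadjusted p under 0.05 was found for 2 members and 1636 of 13158 genes by edgeR, and for 4 members and 1872 genes by DESeq2. For Cryab no gate was called in the edgeR fit of 6 gates. Its means ran from 59.7 CPM in Sst+Nppb to 112 CPM in Clmp sums, with SDs of 51.9 and 76.3. The Pvalb+Vsnl1 genes were both present in 10 cells of 7 batches, 9 of which passed another gate. Their pooled counts gave 49.9 CPM of Trib3 (exact Poisson 95% interval 40.3 to 61.0, counting error only) and 163 CPM of Cryab (145 to 182). With the rule of highest summed CPM, chosen after seeing the data, the Pvalb+Vsnl1 gate had 4 sums. Trib3 was then at 63.9 ± 29.9 CPM and Cryab at 304 ± 147 CPM (SD, n = 4, not TMM-scaled). Of the 10 members 2 were called there, beside 521 genes called higher and 536 lower of 14202.

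**Figure D4:**
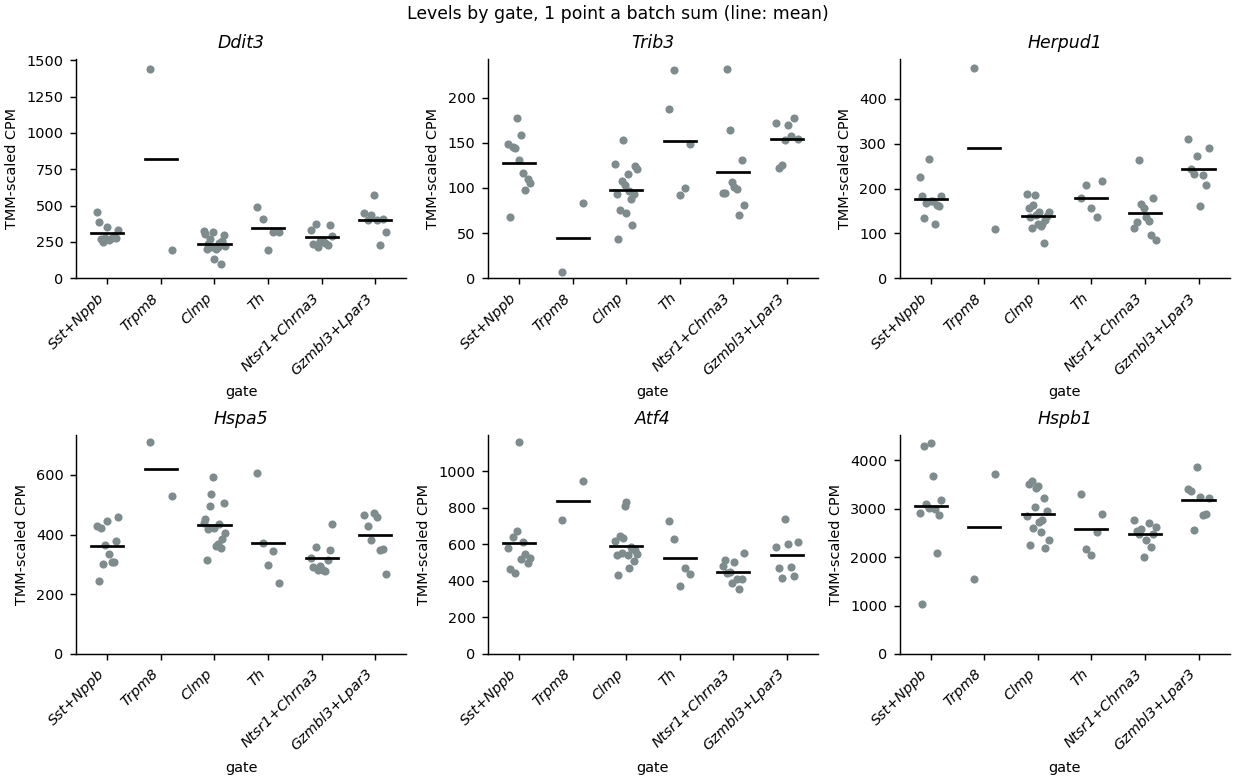
TMM-scaled CPM of 6 genes by gate, 1 point a batch sum, with the mean as a line (11 Sst+Nppb, 2 Trpm8, 15 Clmp, 5 Th, 10 Ntsr1+Chrna3 and 8 Gzmbl3+Lpar3 sums). Trib3 and Herpud1 are high in Gzmbl3+Lpar3 sums (154 and 244 CPM on average), Ddit3 is low in Clmp sums (236 CPM), and the 2 Trpm8 sums lie far apart for Ddit3.

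The lists of related genes were counted in the gates as well. In the Gzmbl3+Lpar3 gate, of 29 genes for ER folding and degradation 10 were higher and 1 lower, of 18 sensors and transcription factors 5 and 0, of 19 targets of the integrated stress response 4 and 1, and of 37 cytosolic heat-shock genes 1 and 4, with list medians of 0.17, 0.39, 0.33 and 0.10 beside 0.08 for all genes. The called shares were 37.9%, 27.8%, 26.3% and 13.5%, beside 15.1% of all genes. Higher genes included Eif2ak3 (0.70, adjusted p = 0.007267), Dnajc3, a co-chaperone of BiP (0.91, adjusted p = 6.831e-05), and Asns, an ATF4 target that makes asparagine (0.64, adjusted p = 0.0001449). Lower ones included Hsp90ab1 (-0.40, adjusted p = 0.01035) and its partner Fkbp4 (-1.09, adjusted p = 1.625e-06). In the Clmp gate Eif2ak3 was lower, at 44.5 CPM against 100.5 CPM in the other gates (-1.02, adjusted p = 2.454e-05), while the co-chaperone Bag3, which pairs with Hspb8, was higher (0.55, adjusted p = 0.000943). Counts in the Clmp gate were 2 higher and 3 lower, 0 and 3, 0 and 0, and 2 and 1 for the lists in the same order, called shares of 17.2%, 16.7%, 0% and 8.11% beside 10.2% of all genes. The Gzmbl3+Lpar3 counts were 7 and 0, 6 and 0, 3 and 1, and 3 and 2 without the Trpm8 sums, beside 980 and 911 of 11787 genes. They were 6 and 1, 1 and 0, 1 and 0, and 0 and 2 with thinned cells, beside 517 and 370 of 7971 genes.

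Within batches Trib3, Herpud1 and Ddit3 formed one group of positive pairs, and the chaperones Hspb8, Hspa8 and Hspb1 another. Trib3 and Herpud1 had the highest rho of the 45 pairs, with a median of 0.45 over 16 batches (0.13 to 0.71, above 0 in 16) and 0.39 with cells thinned. Ddit3 had a median of 0.29 both with Trib3 and with Herpud1, above 0 in 16 batches each. Hspa5 had 0.25 with Herpud1 and 0.22 with Trib3, and 0.15 and 0.12 with cells thinned. Hspb8 had 0.26 with Hspb1 and 0.25 with Hspa8 (0.30 for both with cells thinned). Atf4 had weak values with chaperones and targets alike: 0.20 with Hspa8, 0.16 with Hspb8, 0.10 with Hspb1 and -0.13 with Cryab, and 0.10 with Ddit3, 0.07 with Trib3 and 0.04 with Herpud1. The lowest pair was Herpud1 with Hspb1, at -0.37 and below 0 in all 16 batches, and thinning brought it to -0.15. Cryab had a median no further from 0 than 0.13 with any member.

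**Figure D5:**
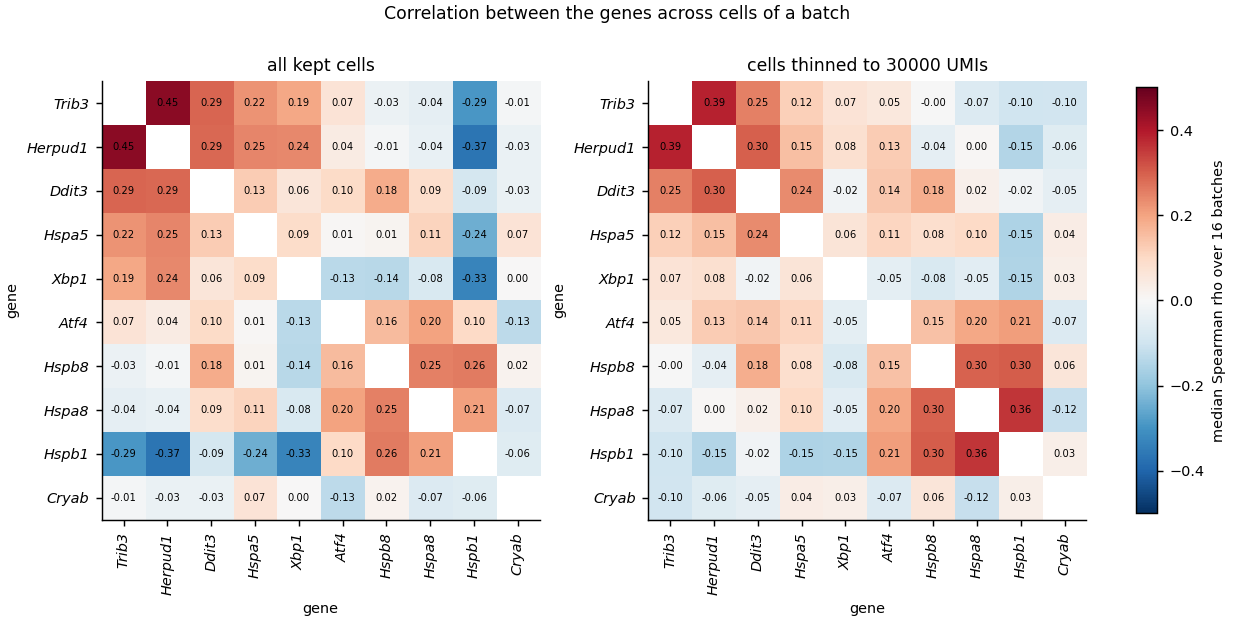
Median over 16 batches of Spearman's rho between each pair of the 10 genes across the cells of a batch, with all kept cells (left) and with cells thinned to 30000 UMIs (right). Trib3, Herpud1 and Ddit3 form one positive block (0.29 to 0.45) and Hspb8, Hspa8 and Hspb1 another, and the negative values of Hspb1 shrink with thinning.

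Among 7753 genes with a UMI in at least 50% of kept cells, the 3 most like each member by the same measure were listed. Next to each other, Trib3 and Herpud1 were nearest Sesn2 (0.43 and 0.45) and Chac1 (0.42 and 0.43), both from the list of integrated stress response targets. Ddit3 was nearest Riok3 (0.36), Ppp1r15a (0.36) and Eif4ebp1 (0.34). Hspa5 was nearest Eprs (0.40), Pdia3, an ER disulfide isomerase (0.39), and Pld3 (0.37), and Atf4 was nearest Tubb2b (0.38), LOC108352650 (0.38) and Eif1 (0.37). Gap43, a growth-associated protein of axons, was among the genes most like Hspb1 (0.82), and with thinned cells it led with 0.69. Hspa8 was nearest ENSRNOG00000018630 (0.63), Eno1 (0.60) and Pebp1 (0.53), and Hspb8 was nearest Ap1s1 (0.40), Psmd8 (0.39) and Gabarap (0.38). Xbp1 was nearest AABR07037436.1 (0.38), Aph1b (0.36) and Smu1 (0.36). Cryab was nearest S100b (0.32) and Sparc (0.30), and S100b is one of the 12 glial markers. The part of glial RNA in Cryab was not tested further than by leaving out the glia-rich cells.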

How the data were processed

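The authors deposited UMI counts, whole numbers per gene and cell, 1 table per batch. The submitters' processing notes name UMI-tools, STAR, featureCounts, Subread, SAMtools and Rnor_6.0; versions and the strand setting are not given in the sources used here, so antisense and overlapping genes cannot be told apart. From the deposited counts, CPM were computed per cell or per sum of cells, after leaving out cells under 2000 genes and batch 21. Sums per batch and gate, or per batch and Atf3 set, were fitted with edgeR 4.0.16 (R 4.3.3): TMM factors, filterByExpr with a minimum count of 10, batch as a term, quasi-likelihood tests, and Benjamini-Hochberg adjustment over all tested genes with a threshold of 0.05. DESeq2 1.42.0 was an alternative. The fit planned for 7 gates held 6, since the Pvalb+Vsnl1 gate gave no sum, so each gate was set against the mean of the other 5. Thinning drew 30000 UMIs from each of 771 cells and left out 196. The scripts were tested on simulated data. All 10 members are named, and from each of 4 related lists at most 4 called genes per direction with the largest change and at least 20 CPM; likeness was ranked to 3 genes a member, of which not all are reported here. Members and lists were chosen with earlier results of these data known. Each cell was picked by hand and no doublet caller was used. Mixing of RNA between cells was not tested, and 154 cells passed several gates. Intervals cover counting error only.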

Additional observations from a re-analysis of the deposited data

Results flagged for a closer look

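In 4 of 30 gene and gate groups tested, 1 sum lay far from the others by Dixon's criterion, which chance meets in about 1 in 20 groups. Hspa5 in the Ntsr1+Chrna3 gate was at 434.6 TMM-scaled CPM in batch 35, where the other sums of the gate held 276.3 to 359.6. Hspa8 in the same gate and batch was at 1024 CPM, where the others held 460.1 to 749.2. Herpud1 in the Ntsr1+Chrna3 gate was at 262.9 CPM in batch 27, against 84.99 to 179.7 CPM in the others. Cryab in the Gzmbl3+Lpar3 gate was at 297.8 CPM in batch 24, against 12.18 to 62.4 CPM in the others.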

How the results depend on the processing

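No paired analysis was possible because the labels give 1 group, so replicate numbers pair no labelled groups; the Atf3 sets were compared within batches, with batch as a term. Of the 10 members, 8 differed across gates, and the number was 3 with cells thinned to 30000 UMIs, 1 with gates at 10 CPM, 4 at 50 CPM, 4 with at least 5 cells a sum (where Trpm8 had no sum) and 5 with the gate of highest summed CPM. It was 6 to 8 when 1 batch was left out. The 12 member and gate calls became 20 with no filter on low counts, 3 with thinned cells, 7 with at least 4000 genes a cell, 0 with gates at 10 CPM, 3 at 50 CPM, 2 with at least 5 cells a sum and 5 with the highest-sum rule, and 8 to 14 without 1 batch. The 5 calls are those of the same 6 gates and leave out 2 in the Pvalb+Vsnl1 gate. At 10 CPM, members with an unadjusted edgeR p under 0.05 numbered 1 in Sst+Nppb, 5 in Trpm8, 3 in Clmp, 2 in Th, 1 in Ntsr1+Chrna3 and 1 in Gzmbl3+Lpar3, beside 1472, 1662, 2283, 777, 1413 and 2084 of 13827 genes. Between Atf3 sets 6 members were called, and 6 to 7 without 1 batch. Over all genes, the 3800 called across gates became 1888 with thinned cells, 1458 at 10 CPM and 2127 with at least 5 cells a sum (3134 to 3858 without 1 batch), and the 3001 between Atf3 sets became 6193 with total UMIs, 1256 with thinned cells and 670 within batch and gate (2619 to 3077 without 1 batch). With total UMIs the Ntsr1+Chrna3 calls were 735 higher and 195 lower, where TMM gave 279 and 331, and the Trpm8 calls 302 and 1033, where TMM gave 519 and 449. Hspa5 in Sst+Nppb turned to 0.012 with the highest-sum rule, and Trib3 between Atf3 sets to -0.18 with total UMIs. As the median cell's CPM, the median batch level was 16.8 for Xbp1, 71.9 for Trib3, 113.6 for Herpud1, 3569 for Hspb1, 24.7 for Cryab and 803.3 for Hspa8. The highest-sum rule, total-UMI scaling and the fit without the Trpm8 gate were chosen after seeing the data. The cause of these changes was not tested. Per cell, Xbp1 had a median of 2 UMIs.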
